A study of Homo sapiens with 12 samples.

Results

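CD44 encodes a transmembrane glycoprotein of the cell surface that binds hyaluronan, a polysaccharide of the extracellular matrix. Its splicing features were taken from 12 tables that the study deposited for HCT116, an established human colon cancer line. A feature was chosen by its gene symbol, CD44, in the 10 rMATS tables and the 2 DEXSeq tables. This gave 41 of 2365 listed features, 37 of 558 rMATS events and 4 DEXSeq features. The tables list features that passed the authors' own FDR or adjusted p threshold in the contrast of treatments or sample sets. CD44 was therefore selected on those differences, which are described here without a test of their own.

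The cells were engineered HCT116 cells with the genotype MTAP null or MTAP WT, obtained from Horizon Discovery. MTAP encodes methylthioadenosine phosphorylase of the methionine salvage pathway. Cells of each genotype received DMSO, the solvent control, or AGI24512. The series describes a MAT2A inhibitor, and MAT2A synthesises S-adenosylmethionine, the methyl donor of the cell. Poly-A RNA of 3 libraries per group, 12 in all, was sequenced. The labels give no dose and no duration, and do not say whether a genotype is 1 clone or whether libraries came from separate cultures. Any p-value therefore covers only library-to-library spread, some or all of it possibly technical.

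The first and last exons of CD44 are shared by nearly all its messenger RNAs, and between them lies a block of variable exons that are joined to the extracellular stalk in many combinations. In epithelial cells, variant forms that carry these exons bind growth factors and present them to receptors, while the standard form skips the whole block. Exon choice is known to depend on RNA-binding proteins such as ESRP1, ESRP2 and KHDRBS1 (Sam68), the last of which links variable exon inclusion to Ras signalling. Human CD44 begins the block with v2, because v1 is not used in human transcripts.

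The exons that carry the listed events were placed on GENCODE 29 (GRCh38), where CD44 lies on the plus strand of chromosome 11 from 35138870 to 35232402. Of 39 annotated transcripts, 1 holds all of v2 to v10, and its 18 exons place them between exon 5 and exon 15. All 9 variable exons have a length divisible by 3, as do 41.0% of 165397 internal coding exons in the annotation. Exon v2 (chr11:35196746-35196874) has 129 bases and v3 (chr11:35198121-35198246) has 126. Exon v4 (chr11:35201082-35201195) has 114 bases and v5 (chr11:35201668-35201787) has 120. Exon v6 (chr11:35204512-35204640) has 129 bases and v7 (chr11:35206112-35206243) has 132. All but v5 are internal exons of that transcript, which holds v5 in a form of 117 bases. The sequences of these exons are shown because they are the ones whose inclusion levels follow, and capitals mark bases that a shorter listed form of the same exon lacks.
v2: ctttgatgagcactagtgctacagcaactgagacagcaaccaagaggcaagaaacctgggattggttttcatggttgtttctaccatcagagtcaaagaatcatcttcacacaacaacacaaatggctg
v3: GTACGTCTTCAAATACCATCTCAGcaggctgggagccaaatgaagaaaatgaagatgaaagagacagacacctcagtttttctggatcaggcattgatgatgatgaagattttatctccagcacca
v4: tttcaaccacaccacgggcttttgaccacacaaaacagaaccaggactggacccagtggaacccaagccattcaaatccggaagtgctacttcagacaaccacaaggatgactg
v5: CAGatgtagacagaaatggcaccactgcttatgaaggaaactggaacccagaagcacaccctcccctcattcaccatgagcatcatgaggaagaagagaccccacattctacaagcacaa
v6: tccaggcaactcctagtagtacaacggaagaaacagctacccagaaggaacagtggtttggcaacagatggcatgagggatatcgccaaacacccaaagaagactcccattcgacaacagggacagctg
v7: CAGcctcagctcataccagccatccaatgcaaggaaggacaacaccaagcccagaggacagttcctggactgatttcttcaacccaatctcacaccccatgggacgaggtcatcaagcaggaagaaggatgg

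The shorter forms begin further downstream at an internal acceptor site. The short v3 has 102 bases and is in none of the annotated transcripts, whereas the short v5 has 117 and the short v7 has 129, each without the leading CAG. GC content ran from 42.1% in v3 to 53.0% in v7, against a median of 49.6% over 48052 internal coding exons of 100 to 140 bases. The purine-rich hexamer GAAGAA, searched on the sense strand only, occurred once each in v3, v5, v6 and v7, in 4 of the 7 exons v2 to v8, against 13.7% of the background exons. TAAA, the DNA spelling of a KHDRBS1 motif, occurred in 0 of the 7 and in 28.2% of background exons. TGGTGG occurred in v8 alone among the 7 and in 7.65% of background exons. A match describes letters, not a bound site.

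**Figure D1:**
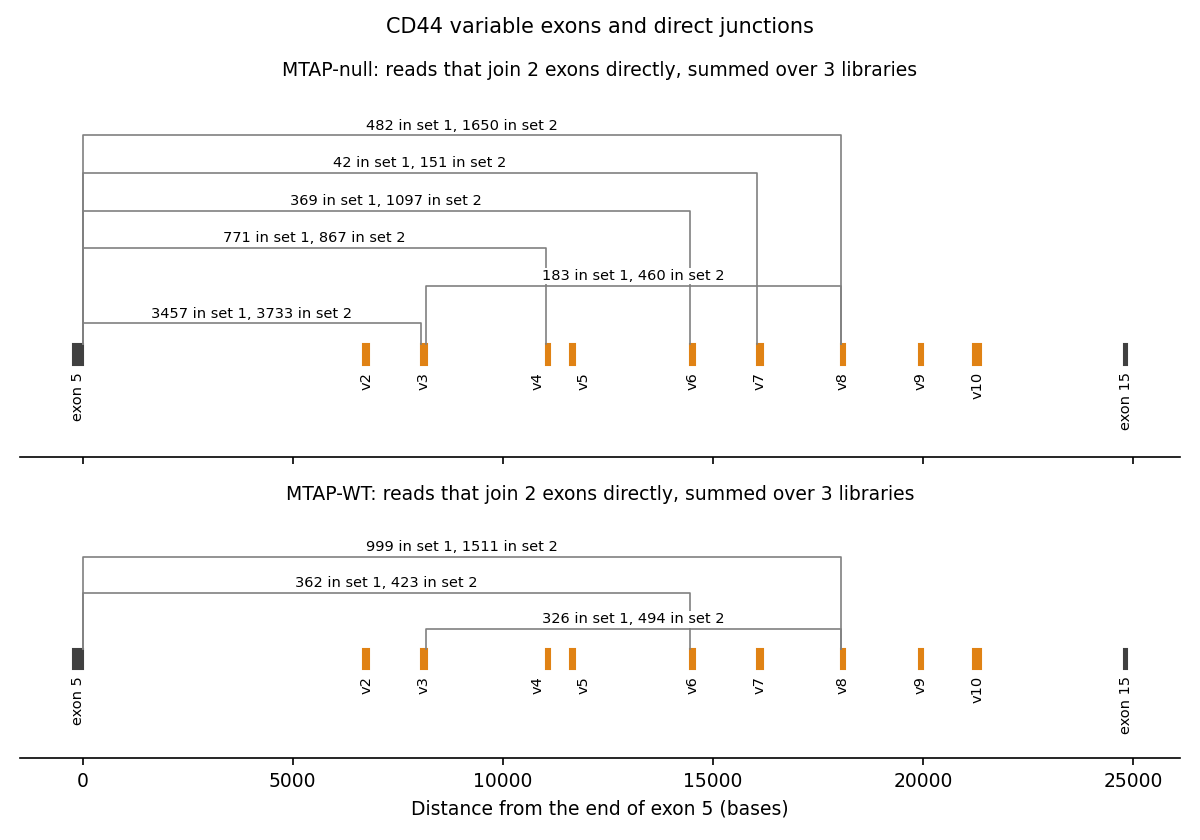
Exons of CD44 drawn to scale by distance from the end of exon 5 in bases, with the reads that join 2 exons directly in each genotype, summed over 3 libraries per sample set. In MTAP-null cells the direct junction from exon 5 to v8 held 482 reads in set 1 and 1650 in set 2, while that from exon 5 to v3 held 3457 and 3733.

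An inclusion level sets reads for an exon against reads that join its named flanking exons directly, each divided by an effective length. Reads inside the exon count whatever it is spliced to, so a level is not a share of whole transcripts. The rMATS tables give a level for every library in 2 sample sets of 3 libraries, called set 1 and set 2, and name no treatment for either. The sets are therefore kept under those names. In MTAP-null cells, 17 skipped-exon events and 4 mutually exclusive exon pairs of CD44 were listed, and in MTAP-WT cells 16 skipped-exon events. No retained intron, alternative acceptor or alternative donor event of CD44 was listed in either genotype.

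Variable exons were included more in set 1 than in set 2 in every listed skipped-exon event of both genotypes. In MTAP-null cells, set 1 was higher in 17 of 17 skipped-exon events, where 48.6% of all 276 listed events were higher in set 1. All 3 libraries of set 1 lay above all 3 of set 2 in 17 of 17, against 45.7% of all listed events. In MTAP-WT cells set 1 was higher in 16 of 16, against 59.0% of 61, and the libraries did not overlap in 16 of 16, against 55.7%. These shares include CD44, and without it 45.2% of 259 MTAP-null and 44.4% of 45 MTAP-WT events were higher in set 1. These directions belong to the contrast that chose the events, and many events share reads, so nothing is read from the counts. The 17 events concern 8 exon forms with 6 pairs of flanking exons, and the 16 concern 9 forms with 3 pairs.

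The event set with exon 5 upstream and v8 downstream covers v2 to v7 in both genotypes. Exon v2, the first of the block, had levels of 0.716, 0.769 and 0.707 in set 1 and 0.326, 0.308 and 0.313 in set 2 in MTAP-null cells, per the authors' deposited table. In MTAP-WT cells its levels were 0.387, 0.332 and 0.318 in set 1 and 0.156, 0.192 and 0.173 in set 2, per the same deposited table for that genotype. Set 1 of MTAP-null cells stood apart, with v2 levels above those of the other 3 sets, all of which stayed below 0.4. The authors' deposited tables give a difference of 0.415 (FDR listed as 0) in MTAP-null cells and 0.172 (FDR 7.96e-07) in MTAP-WT cells. By absolute difference v2 ranked 52 of 276 in MTAP-null cells, where the median was 0.236. The MTAP-null v2 levels rested on 1153, 860 and 1032 inclusion reads and 193, 109 and 180 skipping reads in set 1, and on 708, 586 and 515 inclusion and 617, 556 and 477 skipping reads in set 2.

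Exon v3 carries the heparan sulfate attachment site of CD44, through which variant forms hold growth factors. In MTAP-null cells its deposited levels were 0.814, 0.849 and 0.806 in set 1 and 0.592, 0.581 and 0.589 in set 2. MTAP-WT cells gave 0.68, 0.636 and 0.618 in set 1 and 0.459, 0.47 and 0.468 in set 2 for v3. The groups did not overlap in either genotype, and set 2 of MTAP-null cells lay below set 1 of MTAP-WT cells.

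Exons v4 and v5 had similar levels. In MTAP-null cells v4 had deposited levels of 0.614, 0.688 and 0.655 in set 1 and 0.35, 0.34 and 0.334 in set 2. Exon v5, whose inclusion is the usual reporter of Ras-dependent CD44 splicing, had 0.638, 0.721 and 0.689 in set 1 and 0.334, 0.329 and 0.316 in set 2 there. The deposited differences were 0.311 for v4 and 0.356 for v5, both with an FDR listed as 0. In MTAP-WT cells v4 had 0.408, 0.38 and 0.341 in set 1 and 0.173, 0.177 and 0.17 in set 2. For v5 these were 0.405, 0.355 and 0.338 in set 1 and 0.161, 0.162 and 0.187 in set 2, with deposited differences of 0.203 for v4 (FDR 1.47e-10) and 0.196 for v5 (FDR 4.31e-10). Every set 2 level of v4 and v5 in MTAP-WT cells was under 0.2.

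Exon v6 is the part of CD44 that serves as a co-receptor for MET, the receptor of hepatocyte growth factor. Its levels in MTAP-null cells were 0.651, 0.728 and 0.656 in set 1 and 0.449, 0.439 and 0.437 in set 2, and the deposited difference was 0.237 (FDR 2.66e-10). In MTAP-WT cells they were 0.419, 0.397 and 0.404 in set 1 and 0.258, 0.263 and 0.257 in set 2, with a deposited difference of 0.147 (FDR 0.0109). Set 1 of MTAP-WT cells lay below set 2 of MTAP-null cells for v6.

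Exon v7 had the highest levels of the 6 in both genotypes, but levels of different exons are not strictly comparable. Exon v7 directly precedes v8, so that reads across that junction enter its count. In MTAP-null cells the deposited table gives 0.896, 0.92 and 0.894 in set 1 and 0.72 in each library of set 2. In MTAP-WT cells it gives 0.786, 0.741 and 0.727 in set 1 and 0.505, 0.57 and 0.55 in set 2. The short v7 differed from the long form by at most a few thousandths in MTAP-null cells, since the 2 events share nearly all their reads.

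**Figure D2:**
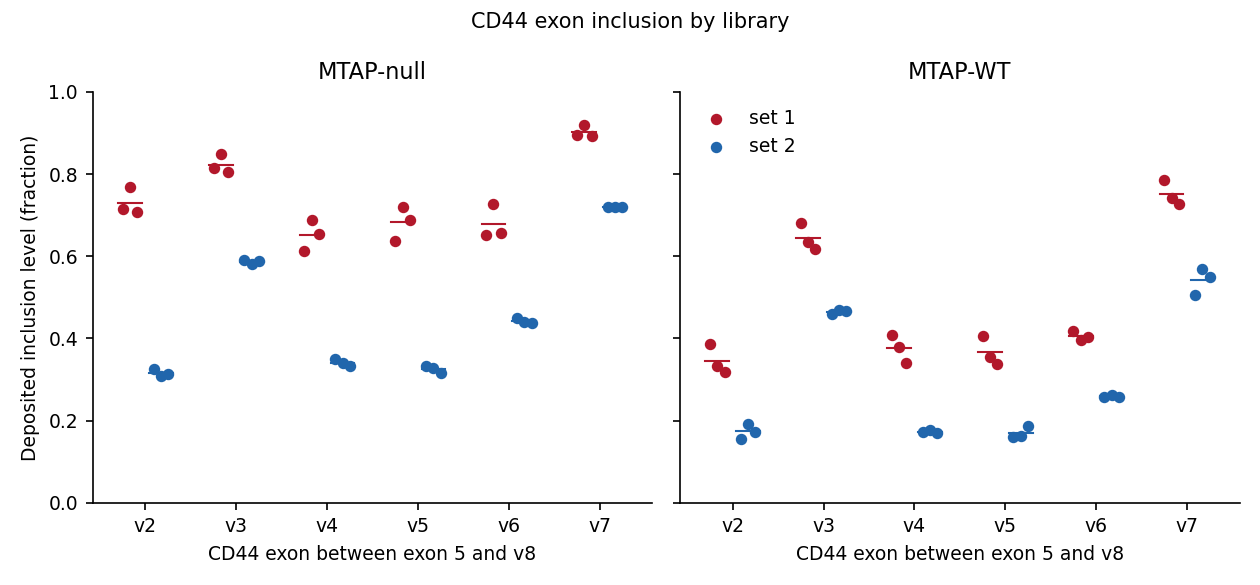
Deposited inclusion level (fraction, vertical axis) of v2 to v7 between exon 5 and v8, with 1 point per library and a line at the mean of each set of 3. Set 1 lies above set 2 for every exon, from 0.707 to 0.769 against 0.308 to 0.326 for v2 in MTAP-null cells.

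The same exons were also listed with other flanks, which changes both the inclusion reads and the skipping junction. In the first listed MTAP-null library of set 1, v4 had 680 inclusion reads with exon 5 and v8 as flanks and 2685 with v3 and v8, its direct upstream neighbour being v3. Between v3 and v8 the deposited levels of v4 were 0.937, 0.948 and 0.957 in set 1 and 0.849, 0.852 and 0.864 in set 2. That difference of 0.092 (deposited FDR 0.00753) was the smallest of the 17 and ranked 272 of 276. In MTAP-WT cells the same event had 0.882, 0.839 and 0.86 against 0.661, 0.685 and 0.71. Exon v5 between v3 and v8 had 0.806, 0.849 and 0.887 in set 1 and 0.631, 0.636 and 0.642 in set 2 of MTAP-null cells. In MTAP-WT cells that event gave 0.683, 0.609 and 0.625 against 0.353, 0.363 and 0.444, the largest deposited difference of CD44 in that genotype, 0.252.

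The unannotated short v3 was listed against different skipping junctions, so its levels depend on the flanks and give no share relative to the long v3. Between exon 5 and v7 its deposited levels in MTAP-null cells were 0.876, 0.824 and 0.863 in set 1 and 0.621, 0.588 and 0.516 in set 2, where the skipping junction was rare. Between exon 5 and v6 in MTAP-null cells it had levels of 0.403, 0.355 and 0.374 in set 1 and 0.129, 0.134 and 0.125 in set 2, per the deposited table. In MTAP-WT cells it had 0.304, 0.3 and 0.341 against 0.188, 0.113 and 0.121. The event nearest the listing threshold was v2 between exon 5 and v6 in MTAP-WT cells, with a deposited FDR of 0.0496 and levels of 0.603, 0.601 and 0.575 against 0.4, 0.451 and 0.429. Events just outside the threshold were not analysed here. Over all skipped-exon events the deposited differences ran from 0.092 to 0.415 (median 0.211) in MTAP-null cells and from 0.119 to 0.252 (median 0.185) in MTAP-WT cells. The fewest reads behind a level were 151 in MTAP-null and 161 in MTAP-WT cells. The 95% Wilson intervals, which cover counting error only, had median widths of 0.0494 and 0.0601.

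Skipping reads show which exons were joined directly and do not depend on the body of the skipped exon. In MTAP-null cells the junctions from exon 5 to the near exons held similar numbers of reads in both sets, and those that reached past v5 held fewer in set 1. From exon 5 to v3 there were 1332, 950 and 1175 reads in set 1 and 1416, 1210 and 1107 in set 2, which overlap. From exon 5 to v4 there were 266, 191 and 314 against 361, 296 and 210, which also overlap. From exon 5 to v6 there were 133, 109 and 127 against 427, 371 and 299, with no overlap. The junction from exon 5 to v7 was rare, with 14 reads in each library of set 1 and 51, 51 and 49 in set 2. From exon 5 to v8, skipping all 6 exons, there were 193, 109 and 180 reads against 617, 556 and 477. The sum over set 1 was 0.292 of that over set 2 for exon 5 to v8, 0.336 for exon 5 to v6, and 0.926 for exon 5 to v3.

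Ratios of junctions within a library do not depend on its depth or on the total level of CD44. In MTAP-null cells the exon 5 to v3 junction was 6.53 to 8.72 times as frequent as exon 5 to v8 in set 1 and 2.18 to 2.32 times in set 2. Exon 5 to v3 over exon 5 to v4 overlapped between the sets, at 3.74 to 5.01 against 3.92 to 5.27. Among the 5 listed junctions that leave exon 5, the share that went to v8 was 9.96%, 7.94% and 9.94% in set 1 and 21.5%, 22.4% and 22.3% in set 2. In MTAP-WT cells 3 direct junctions were listed. Exon 5 to v8 held 318, 345 and 336 reads in set 1 and 606, 455 and 450 in set 2, with no overlap. Exon 5 to v6 held 132, 114 and 116 against 166, 132 and 125, which overlap. A junction not listed in MTAP-WT cells is not shown to be absent there.

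**Figure D3:**
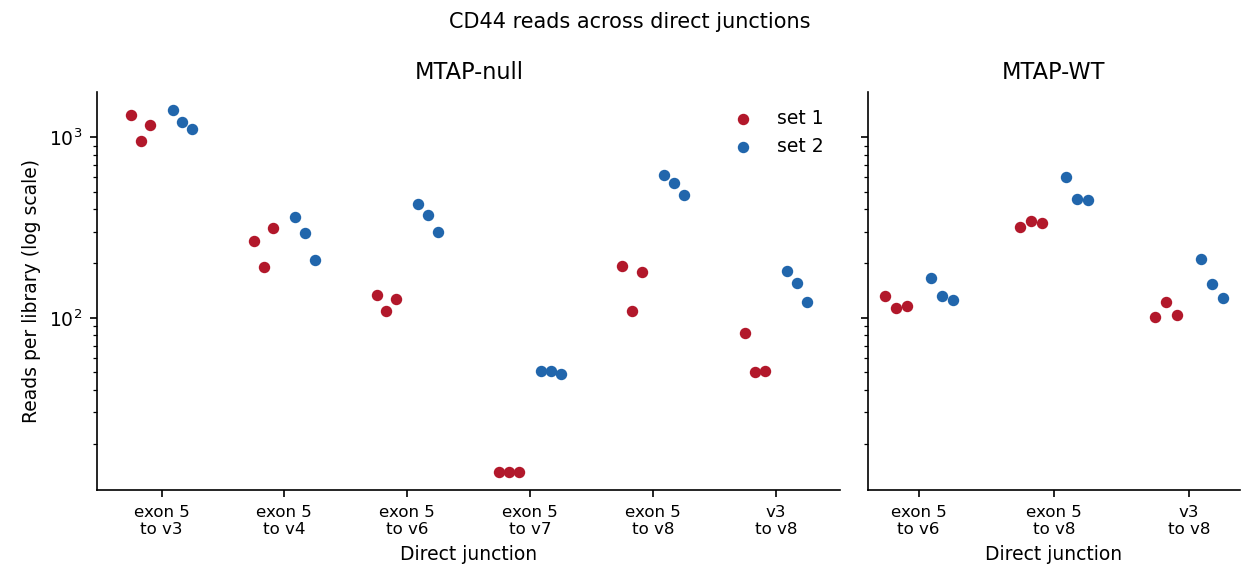
Reads per library (log scale) across each listed direct junction of CD44, with 1 point per library. In MTAP-null cells the sets overlap for exon 5 to v3 and to v4 and are apart for the junctions to v6, v7 and v8, where set 1 is lower.

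Mutually exclusive pairs, 4 in number, were listed, all in MTAP-null cells, and here a level is the share of the upstream exon of the pair. A higher level therefore means a lower share of the other variable exon, which was v3, v6 or v8. Set 1 was higher in 4 of 4, against 61.5% of 39 listed pairs, and the libraries were apart in 4 of 4, against 59.0%. Exon v2 against v6 had deposited levels of 0.574, 0.554 and 0.559 in set 1 and 0.372, 0.362 and 0.37 in set 2. Exon v2 against v3 had 0.366, 0.371 and 0.368 against 0.25, 0.243 and 0.241, so v2 was higher relative to v3 in set 1. Exon v3 against v8, between exon 5 and exon 15, had 0.765, 0.757 and 0.747 against 0.641, 0.622 and 0.635. The deposited FDR of the last 2 pairs was 0.0338. The pairs of v2 against v6 and of v2 against v3 use the same reads as skipped-exon events. The pairs against v8 share nearly all their v3 reads with such events, while v8 is the target of no listed skipped-exon event.

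The DEXSeq tables name the treatments and count reads in features around detained introns, which are introns that stay in polyadenylated RNA held in the nucleus. CD44 had 3 listed features in MTAP-null cells, the intron between exon 5 and v2 (chr11:35190066-35196745), exon v2 itself and the intron between v2 and v3 (chr11:35196875-35198120). MTAP-WT cells had v2 alone. Usage is a fitted score of a feature within its gene and not a share of reads. With AGI24512 it was 74.0, 59.0 and 33.1 for these features in MTAP-null cells, so its log2 fold is not the change of a read share. Usage was higher with AGI24512 in 3 of 3 and 1 of 1, where 93.5% and 79.1% of all listed features were higher.

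Exon v2 held 1508, 1118 and 1396 reads with AGI24512 and 871, 783 and 664 with DMSO in MTAP-null cells. After division by the recovered size factors these were 1322.0 ± 67.5 (SD, n = 3) against 764.9 ± 6.94, a fold of 1.73. In MTAP-WT cells v2 held 639, 537 and 503 reads against 339, 319 and 317, or 551.8 ± 35.6 against 324.2 ± 11.3 normalised reads (SD, n = 3), a fold of 1.70. The groups did not overlap in either genotype. The fold of v2 in log2 was 0.79 (SE 0.08) in MTAP-null and 0.77 (SE 0.12) in MTAP-WT cells by edgeR, but with TMM scaling on the listed features the MTAP-null value flipped to -0.04. That scaling moved the median of all listed features from 0.95 to 0.11 in MTAP-null and from 0.73 to 0.16 in MTAP-WT cells, and relative to that median v2 stood at -0.16 with the size factors and -0.15 with TMM in MTAP-null cells. In the authors' deposited tables the usage of v2 was higher by 0.41 in log2 in MTAP-null cells (adjusted p 5.95e-85, rank 2 of 1549) and by 0.14 in MTAP-WT cells (adjusted p 0.0112, rank 134 of 258). The median log2 usage fold of all listed features, AGI24512 over DMSO, was 0.56 in MTAP-null and 0.43 in MTAP-WT cells. The difference between genotypes in the log2 read fold of v2 was 0.02 (SE 0.12). It is given as a description, since v2 was listed for the same contrast in both genotypes. The read fold is not set against the rest of CD44, so it does not show an equal response of v2 splicing.

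The flanking introns were also higher with AGI24512. The intron between exon 5 and v2 held 1717, 1978 and 2810 reads with AGI24512 and 1244, 1177 and 1003 with DMSO, a normalised fold of 1.90. The intron between v2 and v3 held 304, 365 and 551 against 206, 191 and 143, a normalised fold of 2.27. The treated libraries were all above the DMSO libraries, and AGI24512 replicate 1 was the lowest treated library in both introns and the highest in v2 after normalisation. Per kb, v2 had 10248 ± 523 normalised reads with AGI24512 (SD, n = 3), where the introns had 322 ± 77.8 and 323 ± 93.3. The ratio of v2 to the upstream intron per kb was 45.5, 29.3 and 25.7 with AGI24512 and 36.3, 34.4 and 34.3 with DMSO, which overlap. With TMM scaling these folds were 0.06 and 0.31 in log2, against 0.93 and 1.18 with the size factors. The deposited adjusted p was 0.000263 for the upstream and 0.000204 for the downstream intron, with usage higher by 0.46 and 0.61 in log2.

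**Figure D4:**
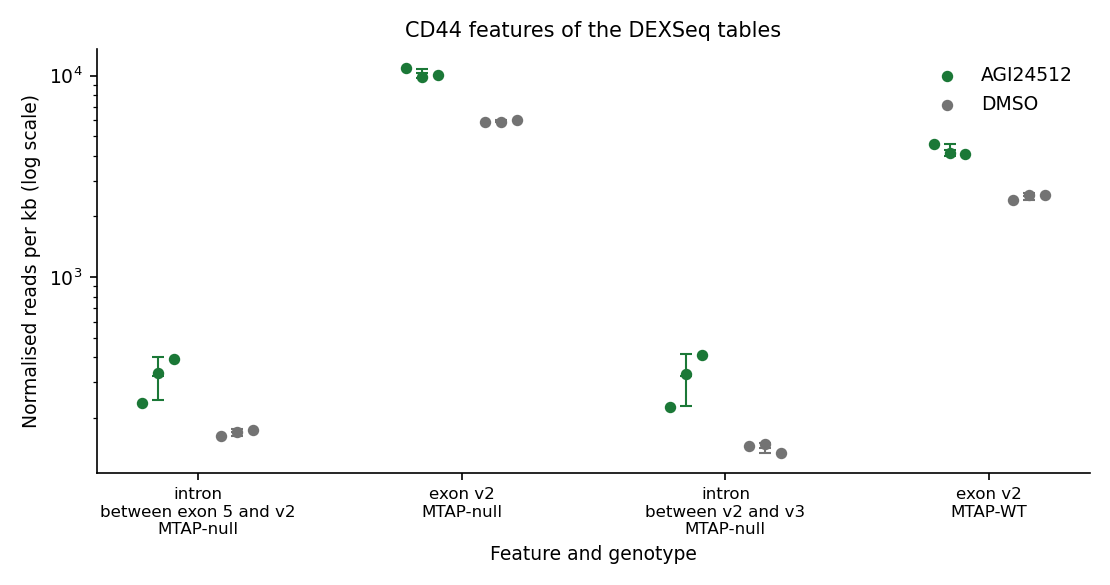
Size-factor normalised reads per kb (log scale) of each CD44 feature listed by DEXSeq, with 1 point per library and bars of mean ± SD over 3. AGI24512 libraries lie above DMSO libraries in each, at 10248 against 5929 for v2 in MTAP-null and 4278 against 2513 in MTAP-WT cells.

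The genotype was not part of the contrast that chose the events, so MTAP-null and MTAP-WT levels were tested on the 12 skipped-exon events listed in both. The 2 genotypes come from separately made tables, but a level is a ratio within a library. MTAP-null cells had the higher mean level in 12 of 12, by 0.0255 to 0.264 (median 0.191). The share was 92.9% of the 14 shared events of any gene, but these include the 12, so it is no separate background. The other 2 were split, with differences of 0.0207 in FAM211A-AS1 and -0.00417 in ZFAS1. The direction is therefore not shown to be particular to CD44. Events with the same flanks share their skipping reads, so the 12 are not independent of each other. The size went with the flank. Between exon 5 and v6 the differences were 0.0255 for the short v3 and 0.0462 for v4, and with v8 downstream they were 0.128 to 0.264. Of the 12, 2 passed an exact permutation test of 6 against 6 libraries, two-sided, with Benjamini-Hochberg adjustment over the 12, against 14.3% of the 14. Both were v6. Between exon 5 and v8 the mean of v6 was 0.56 in MTAP-null and 0.333 in MTAP-WT cells, and between v3 and v8 it was 0.736 and 0.520. All 6 MTAP-null libraries lay above all 6 MTAP-WT libraries in both. The exact permutation p was 0.00216, the smallest this design can give (adjusted 0.0130 over the 12 and 0.0152 over the 14). The other 10 had adjusted p-values of 0.0577 to 0.652 in the exact permutation test. Without the first listed MTAP-WT library of set 1, 4 events passed, and v4 and v5 between v3 and v8 were the added ones.

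This test left the difference between sets in its error. In those 10 events the genotypes overlapped only across sets, except for the short v3, which also overlapped within set 2. Exon v2 between exon 5 and v8 had means of 0.523 and 0.260, a difference of 0.264 with an adjusted exact permutation p of 0.0577. Within set 1, all 3 MTAP-null libraries lay above all 3 MTAP-WT libraries in 12 of 12 events. Within set 2 this held in 11 of 12, the exception being the short v3, with a difference of -0.0113. Among the 14 shared events, which include these 12, the share was 92.9% in each set. With 3 libraries against 3 the smallest exact permutation p is 0.1, so neither set can be called alone. When genotype labels were permuted within each set, an alternative chosen after seeing the data, 11 of the 12 events passed, against 85.7% of the 14. The exact permutation p of each of the 11 was 0.005, the smallest that 400 arrangements allow (adjusted 0.00583 over the 14), and the short v3 had an adjusted p of 0.21. That alternative takes set 1 of both tables as alike, which the headers do not state. FAM211A-AS1 also passed it, with means of 0.241 and 0.221, and ZFAS1 did not. The 11 CD44 events share skipping reads where their flanks match, so they are not separate findings. The difference between sets was larger in MTAP-null than in MTAP-WT cells in 7 of the 12 events, which was not tested. The genotype cannot be told apart from other differences between the 2 engineered lines.

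**Figure D5:**
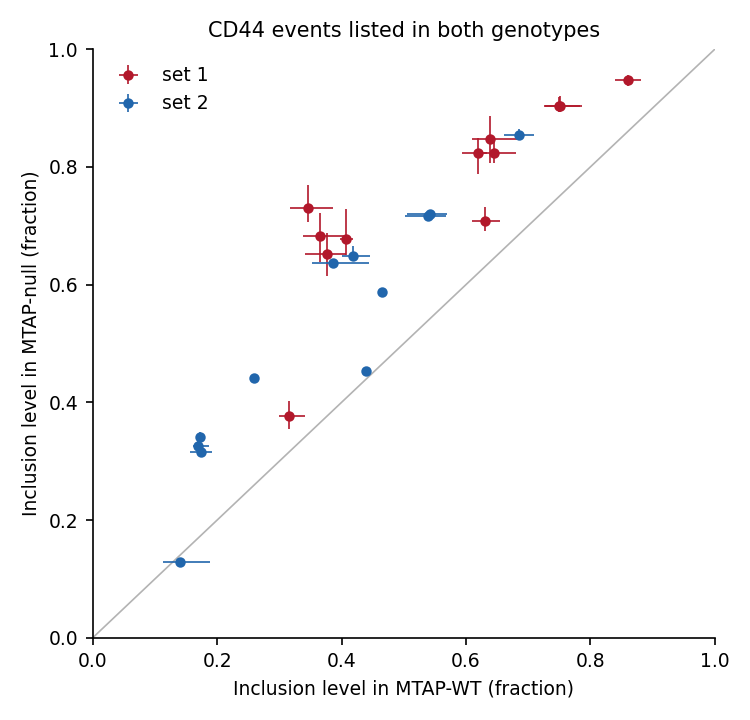
Mean inclusion level of the 12 shared CD44 events in MTAP-null (vertical) against MTAP-WT cells (horizontal), by set, with lines spanning the lowest and highest of 3 libraries. Points lie above the diagonal of equal levels except the short v3 in set 2, where the difference is -0.0113.

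CD44 had more listed skipped-exon events than any other gene in MTAP-null cells, 17, followed by C16orf13 and ZNF266 with 4 each and SNHG5 with 3. These 4 genes differed in direction, since the 4 events of C16orf13 were all lower in set 1 and 2 of 4 of ZNF266 were higher. Of 14 skipped-exon events listed in both genotypes, 12 were CD44. The other 2 were in the noncoding genes FAM211A-AS1 and ZFAS1, which were lower in set 1 in both genotypes. Over the 12 libraries Pearson's r with the v2 level between exon 5 and v8 was -0.589 for FAM211A-AS1 and -0.774 for ZFAS1, given as a description since all 3 were listed for the same contrast.

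Among 31 genes known or proposed to regulate CD44 splicing, 7 had a listed feature in MTAP-null and 1 in MTAP-WT cells. The number of genes tested is not given, so the share of all genes that were listed is unknown. Nothing is therefore read from this count or from those of the lists below. ESRP1, ESRP2 and KHDRBS1 were not listed. HNRNPA2B1, an RNA-binding protein, had a skipped exon with deposited levels of 0.176, 0.182 and 0.261 in set 1 and 0.061, 0.061 and 0.015 in set 2. SRSF3, a splicing factor of the SR family, went the other way. Its skipped exon had deposited levels of 0.035, 0.044 and 0.052 in set 1 and 0.13, 0.138 and 0.119 in set 2, and its mutually exclusive pair differed by -0.079. In the authors' deposited table, usage with AGI24512 was higher by 0.61 in log2 in MBNL1 and lower by 0.78 in SRSF10 (log2 -0.78) in MTAP-null cells. Of the 7 listed DEXSeq features of the regulators 6 were higher, against 93.5% of all listed features. RBM5 had 3 such features in MTAP-null cells, and its 1 in MTAP-WT cells had a log2 usage fold of 0.50.

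Of 25 ligands, partners and proteases of CD44, 3 were listed in MTAP-null cells and 1 in MTAP-WT cells. In MTAP-null cells 4 of 4 features had higher usage in the deposited table, a share near the 93.5% of all listed features. Among them were 2 features of the sheddase ADAM17 (log2 0.73 and 0.57) and 1 of MET (log2 0.33). The MTAP-WT feature was in RDX, or radixin, a link to the actin cytoskeleton (log2 0.07). Of 19 other genes known for splicing that differs between epithelial and mesenchymal cells, 4 were listed in MTAP-null and 0 in MTAP-WT cells. In MTAP-null cells the deposited usage was higher in ARHGEF11 (0.87), MAP3K7 (0.45) and ENAH (0.23) in log2. MAP3K7, a kinase of stress and cytokine signalling, also had a skipped exon with deposited levels of 0.501, 0.453 and 0.408 in set 1 and 0.689, 0.649 and 0.717 in set 2, with no overlap. CTNND1, p120 catenin, had a listed skipped exon with levels of 0.181, 0.306 and 0 in set 1 and 0.57, 0.306 and 1 in set 2, which touch. Gene levels were not available, so the cell type could not be checked. Listing rests on the splicing contrast and does not show whether a marker is expressed. Of 7 epithelial markers KRT8 was listed, with a log2 usage fold of -0.65 in MTAP-null and 0.28 in MTAP-WT cells. Of 5 mesenchymal markers 0 were listed.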

How the data were processed

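The sources used here hold the authors' splicing tables for 12 libraries of poly-A RNA. The sequencing was paired-end, per the labels' protocols. Per the file headers, rMATS gave reads, an inclusion level per library, a difference of mean levels (a score here) and a p-value with its FDR, and DEXSeq gave read counts, a base mean (signal), a fitted usage score, a log2 usage fold and a p-value with its adjusted value. The aligner, annotation, build and versions were not given in the sources used here, and coordinates matched GENCODE 29 (GRCh38).

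In the deposited rMATS tables the separators between the read numbers of 3 libraries were often lost. The digits were split so that recomputed levels matched the deposited ones within 0.00051, which gave 1 solution for all 37 CD44 events and for 555 of 558 in all. The inclusion length of each skipped exon of CD44 is its length plus 94 bases and the skipping length is 94, as in counting that includes reads inside the exon. Events with the same flanks share their skipping reads.

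For DEXSeq features, size factors were recovered from the deposited base means, and ran from 0.859 to 1.14 in MTAP-null and 0.953 to 1.09 in MTAP-WT cells. Reads over the listed features were 113064 to 214530 and 50919 to 65080 per library, which is part of each library and not its depth. Folds came from edgeR 4.0.16 (quasi-likelihood fit on the whole table, R 4.3.3), with DESeq2 1.42.0 as an alternative, and the scripts were tested on simulated data. Inclusion levels of the genotypes were compared by exact permutation (SciPy 1.17.1), over all libraries and, as an alternative, within sets, with Wilson intervals for single levels. The text names every listed CD44 event by count or value, and up to 5 other genes with the most listed events. It gives values for up to 4 members per gene list and genotype. The members and lists were chosen with earlier results of these data known. Alternatives were other scalings, filters and level definitions, a replicate block and each library left out. A listed member of the gene lists is not reported here by name.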

Additional observations from a re-analysis of the deposited data

How the results depend on the processing

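Of 333 recomputed differences of single CD44 events, 302 moved by less than the spread between libraries, 31 moved by more and 0 changed sign. Most of the 31 came from the alternative without effective lengths, which moved most skipped-exon events, so their size depends on that correction. Without effective lengths the MTAP-null median difference was 0.147 in place of 0.211. Leaving out 1 library at a time gave medians of 0.191 to 0.232 in MTAP-null and 0.174 to 0.193 in MTAP-WT cells. Counted as distinct exon forms in place of events, CD44 had 8 and 9. At an FDR below 0.01 it had 19 and 14 events, and with an absolute difference of at least 0.1 it had 20 and 16. Between genotypes, 0 events passed within set 1 and 0 within set 2, where 3 libraries against 3 cannot pass. With genotype labels permuted within each set 11 passed, and with adjustment over all 14 shared events 2 passed, both alternatives chosen after seeing the data. Leaving out 1 library gave 2 to 4 events past the threshold, with 4 when the first listed MTAP-WT library of set 1 was left out, and v4 and v5 between v3 and v8 then passed as well. The short v3 between exon 5 and v6 reversed to -0.0113 within set 2 and to -0.00443 without the first listed MTAP-null library of set 1. TMM scaling on the listed features gave log2 folds of -0.040 for v2, 0.060 for the upstream intron and 0.31 for the downstream intron in MTAP-null cells, and 0.19 for v2 in MTAP-WT cells, where listed features are mostly higher with AGI24512. Leaving out 1 library gave 0.75 to 0.82, 0.76 to 1.10 and 0.97 to 1.39, and 0.71 to 0.80 in MTAP-WT cells. With the replicate number as a block the log2 folds were 0.79, 0.90, 1.14 and 0.77. Same-numbered libraries did not deviate together (correlations of 0.069, 0.038 and 0.008 in MTAP-null, and -0.117, -0.016 and 0.062 in MTAP-WT cells), so the numbers were not taken as pairs. The tables list features past a threshold and hold 3 libraries per set, so unlisted junctions cannot be read as absent.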
